A study of Eohaustorius estuarius with 16 samples.

Results

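Among the transcripts of the estuarine amphipod Eohaustorius estuarius measured here, 59 contigs gave a lower signal on every array of cyfluthrin-exposed samples than on any array of control samples. A contig is an assembled transcript fragment, known in these files by its number alone. The contigs were picked by that criterion, the highest of 8 cyfluthrin values lying below the lowest of 8 control values, from the 7574 contigs kept by a filter on dim spots, out of 8507 on the array. They make up 0.779% of the contigs tested, and a further 86, or 1.14%, lay above all controls on every cyfluthrin array. Because the differences between the groups chose these 59 contigs, those differences are given as a description and carry no test.

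The control group held 8 samples from sediment spiked with solvent, and the cyfluthrin group 8 samples from sediment spiked with cyfluthrin at a nominal 1.6 µg/kg, both after 10 days. RNA came from whole bodies, as the series describes it of 8 control and 8 exposed amphipods, was extracted by 1 laboratory and was labelled with Cy3 and hybridised, 1 sample per 1-colour Agilent array, by laboratory B of an interlaboratory comparison. Strain, sex, age and the number of exposure containers are not in the labels. Tests across these arrays therefore measure the spread between these samples, part of which may be technical.

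Cyfluthrin is a pyrethroid, a class of insecticides that slow the closing of voltage-gated sodium channels in nerve cells, so that the cells fire repeatedly. Crustaceans, like insects, are highly sensitive to pyrethroids, and burrowing amphipods meet these poorly soluble compounds in the sediment they live in. Arthropods break pyrethroids down mainly through esterases and cytochrome P450 enzymes. Which of the 59 contigs belong to such pathways cannot be told from the files used here, which pair contig numbers with no gene name, sequence or position. In whole-body RNA, fewer cells of a type and less RNA per cell cannot be told apart, and no cell type could be checked against its markers.

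Signals are given as log2 of a spot's processed signal relative to the 75th percentile of its array, averaged over the spots of a contig, so that 0 is the 75th percentile and a difference of 1 is a factor of 2. The 75th percentile ranged from 463.2 to 795.7 over the 16 arrays, and 80.6% to 95.4% of the contig spots were well above background. Of the 59 contigs, 58 were well above background on all 16 arrays, 0 had a saturated spot on any array and 0 of their 1616 spot readings had been set aside as an outlier. Single spots measured 17 of them (28.8%, against 26.2% of the contigs tested), paired spots measured 42, and 0 belonged to the contigs printed 10 or 11 times.

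The 59 differences ranged from a log2 change of -0.21 to one of -2.62, cyfluthrin minus control. Their median was -0.86, with quartiles of -1.29 and -0.55, beside a median of 0.01 over all contigs tested. That 0.01 is not matched for brightness: the median control level was 1.38 for the 59 and -1.53 for all tested. Whether bright contigs as a class changed in the same direction was not tested. At least 4-fold lower means were found for 4 contigs, means 2-fold to under 4-fold lower for 19, and means less than 2-fold lower for 36. Small differences met the criterion where the arrays of a group lay close together: the median SD between control arrays was 0.17 for the contigs less than 2-fold lower and 0.33 for the 23 others. The limma fit on all 7574 contigs called 277 (3.66%) lower and 284 (3.75%) higher with cyfluthrin at an adjusted p under 0.05, and 56 of the 59 were among them. The criterion and the fit use the same contrast, so this overlap supports nothing. The 3 contigs not called were contig_1839, contig_1915 and contig_3371.

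**Figure D1:**
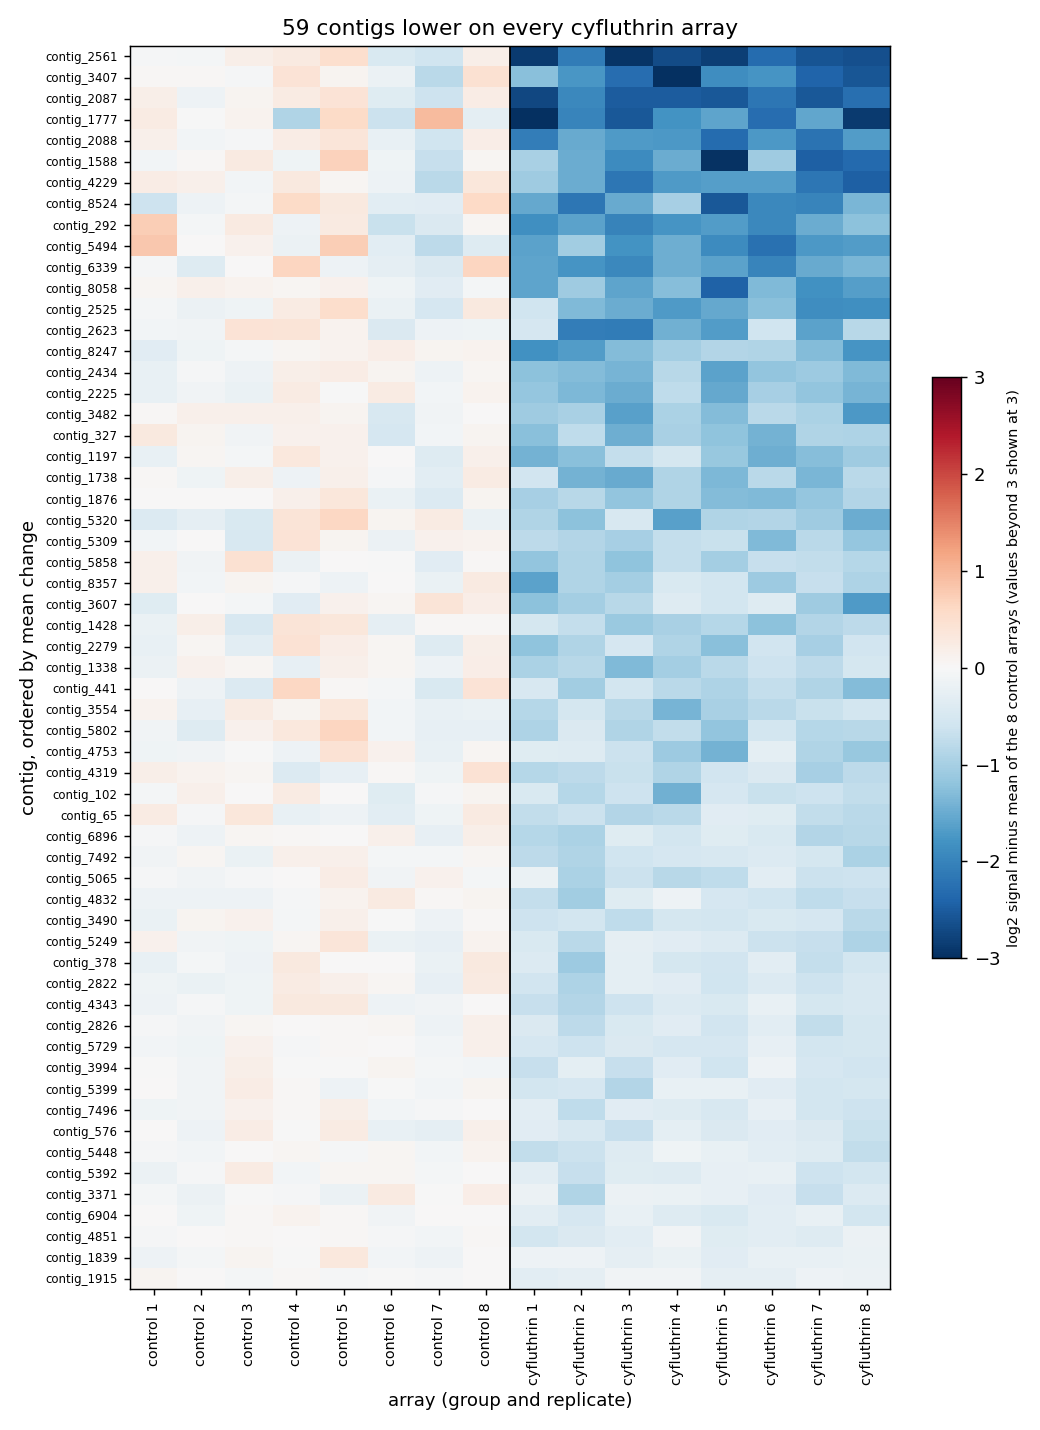
Log2 signal of the 59 contigs on each of the 16 arrays, as the difference from the contig's mean over the 8 control arrays; rows are contigs ordered by mean change, columns are arrays, and blue is lower. The median over the contigs lay between -0.15 and 0.14 on the control arrays and between -0.90 and -0.65 on the cyfluthrin arrays.

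The greatest fall was that of contig_2561, whose 2 spots per array gave 2.18, 2.85 and 3.29 as the lowest, median and highest control value and -0.17, 0.12 and 0.68 with cyfluthrin. The means were 2.78 ± 0.37 and 0.16 ± 0.29 (SD, n = 8 each), a 6.14-fold lower mean signal. No cyfluthrin array came within 1.50 log2 units of a control array, the widest gap among the 59. In processed signal the geometric means were 4170 in control and 700 with cyfluthrin. For contig_2087 the control values ran from 0.76 through a median of 1.51 to 1.79, and the cyfluthrin values from -1.34 through -1.12 to -0.55, a 5.28-fold lower mean and a gap of 1.31. For contig_2088 they ran from -0.50 through 0.15 to 0.45 in control and from -2.22 through -1.63 to -1.41 with cyfluthrin, a 3.64-fold lower mean and a gap of 0.91. For each of these 3 contigs control replicate 7 was the lowest control and cyfluthrin replicate 2 the highest cyfluthrin array.

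The signal of contig_1777, from 1 spot per array, was among the brightest of the 59. It ran from 3.64 through 4.58 to 5.48 in control and from 1.36 through 2.40 to 2.97 with cyfluthrin, a 4.68-fold lower mean. Its arrays were spread more widely than those of contig_2561, with an SD of 0.61 in control and 0.60 with cyfluthrin, and its gap was 0.67. Here control replicate 7 was the highest control, not the lowest. A single spot also measured contig_3407, which ran from 0.67 through 1.52 to 1.93 in control and from -5.40 through -0.59 to 0.23 with cyfluthrin. The spot passed the background test on every array except cyfluthrin replicate 4, which gave the -5.40, and its mean change of -2.60 became -1.99 without that array.

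The next falls in order were those of contig_1588, contig_4229 and contig_8524. The signal of contig_1588 lay between 2.10 and 3.47 in control, median 2.77, and between -0.17 and 1.81 with cyfluthrin, median 1.11, a 3.55-fold lower mean. Values for contig_4229 were 2.18 to 3.34 in control, median 3.10, and 0.54 to 1.92 with cyfluthrin, median 1.33, a 3.46-fold lower mean. For contig_8524 they were 0.11 to 1.35 in control, median 0.65, and -1.81 to -0.26 with cyfluthrin, median -0.99, a 3.39-fold lower mean. The groups of these contigs lay 0.26 to 0.37 apart, so that the cyfluthrin and control arrays nearest to each other differed far less than the means.

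**Figure D2:**
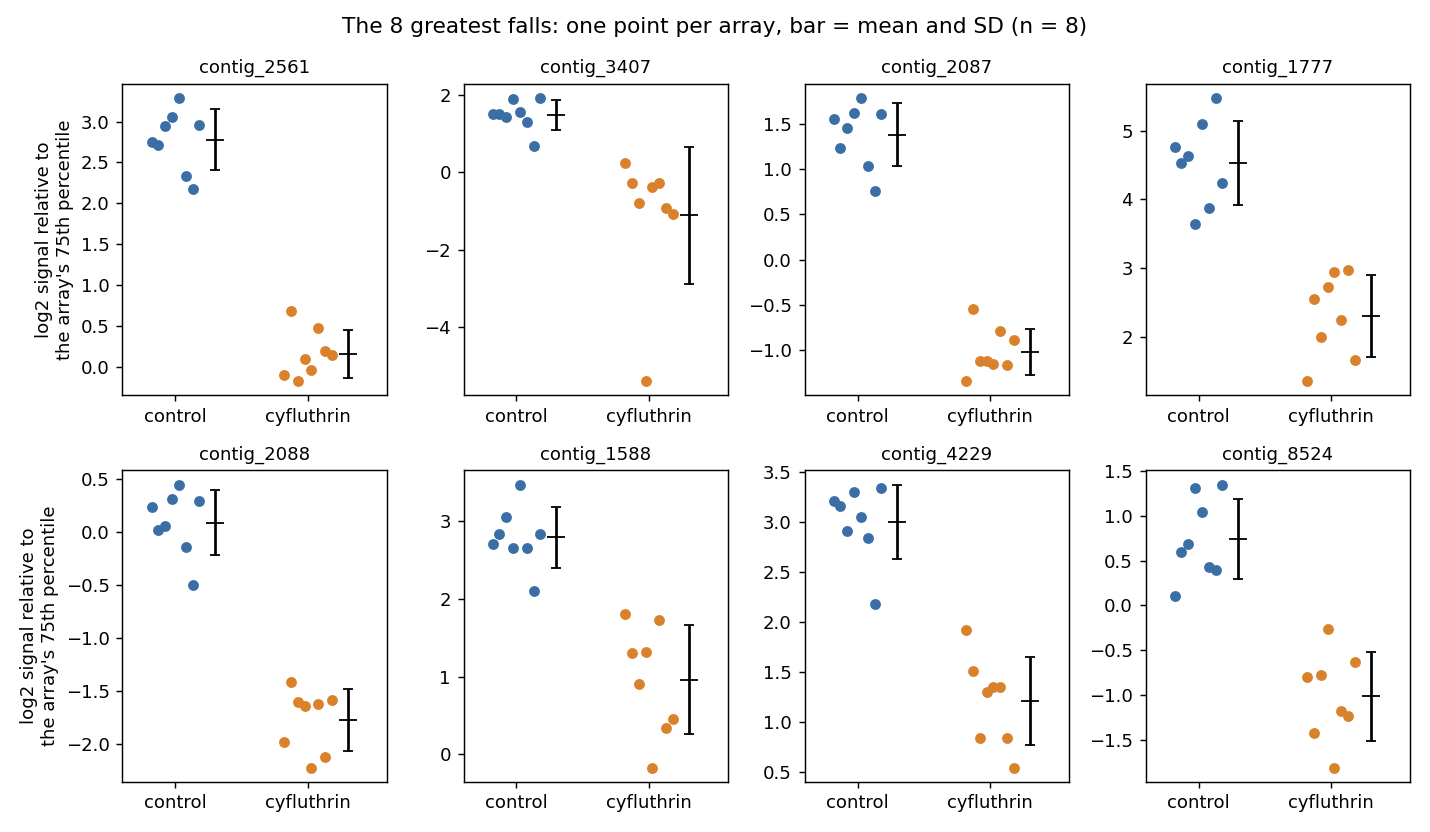
Log2 signal relative to the array's 75th percentile for the 8 contigs with the greatest falls, a point per array, with the mean and SD (n = 8) as a bar beside each group; each panel has its own scale. The single low point of contig_3407 at -5.40 is cyfluthrin replicate 4, and contig_2561 shows the widest gap, 1.50.

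Wide gaps were not limited to the greatest falls. The signal of contig_8058 lay between 0.53 and 1.03 in control, median 0.94, and between -1.55 and -0.20 with cyfluthrin, median -0.72, a 3.01-fold lower mean and a gap of 0.73. The dim contig_6339 lay between -1.83 and -0.75 in control, median -1.50, and between -3.38 and -2.76 with cyfluthrin, median -3.00, a 3.16-fold lower mean and a gap of 0.93. Geometric mean processed signals were 231 and 75, and all 16 arrays passed the background test. After normexp background correction its change was -0.77 in place of -1.66 and its groups overlapped.

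The contigs with the highest control signal were contig_2434, contig_1777, contig_5065 and contig_1738. For contig_2434 the control values lay between 5.04 and 5.49, median 5.27, and the cyfluthrin values between 3.66 and 4.43, median 3.98, a 2.37-fold lower mean with SDs of only 0.16 and 0.23. The signal of contig_1738 lay between 3.85 and 4.41, median 4.18, in control and between 2.67 and 3.61, median 3.06, with cyfluthrin, a 2.13-fold lower mean. For contig_5065 the ranges were 4.30 to 4.64, median 4.37, and 3.47 to 4.21, median 3.78, a 1.53-fold lower mean and a gap of 0.09. At the dim end, contig_3554 lay between -3.30 and -2.72 in control, median -3.06, and between -4.45 and -3.58 with cyfluthrin, median -3.88. Its geometric mean processed signals were 73 and 42, and normexp background correction turned its change from -0.82 to 0.14. Other dim members were contig_4753, with means of -1.44 ± 0.21 and -2.22 ± 0.42, and contig_3994, with means of -1.35 ± 0.09 and -1.83 ± 0.20 (SD, n = 8 each); with normexp their changes were -0.12 and -0.13, and the median change of all contigs was 0.27 with that method and 0.01 without it.

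The 59 contigs lay mostly among bright probes. Of the 2525 brightest contigs tested 44 met the criterion, of the middle 2524 14 did, and of the 2525 dimmest 1 did. In control 47 of the 59 (79.7%) had a mean above the array's 75th percentile, against 28.1% of the contigs tested, and with cyfluthrin 32 of them still did. A probe's brightness also depends on the probe, so these counts rank signals and not amounts of RNA. Whether the criterion itself favours bright probes was not tested, so the excess is not read as a trait of these contigs. Arrays of a group differed less for these contigs than for most, as the criterion favours: the median SD was 0.21 in control and 0.25 with cyfluthrin, against 0.29 and 0.38 over all contigs tested. The cyfluthrin arrays had the higher SD for 39 of the 59 (66.1%), against 75.7% of the contigs tested.

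**Figure D3:**
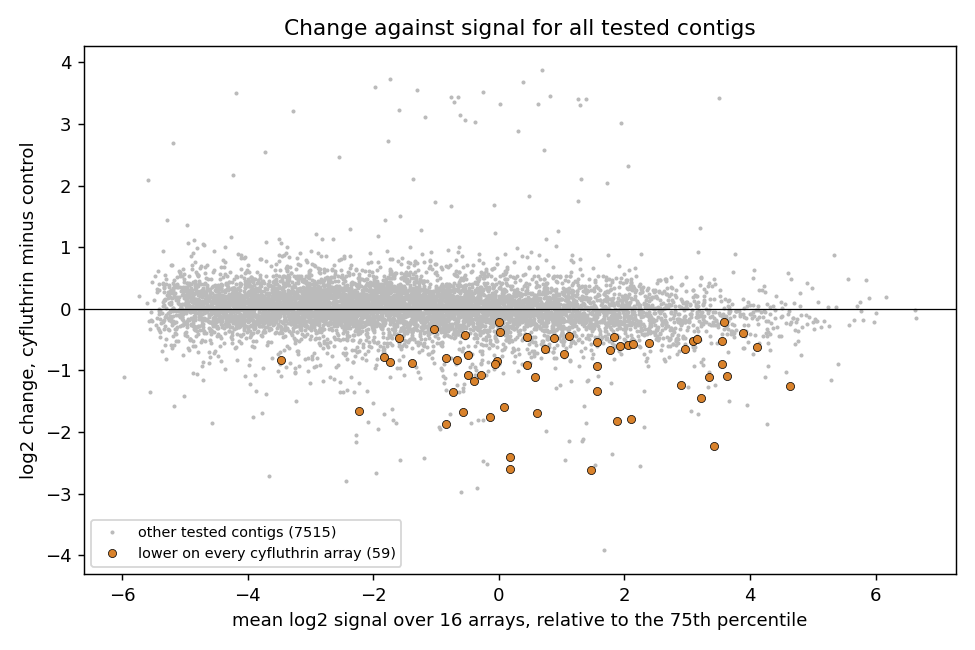
Log2 change, cyfluthrin minus control, against the mean log2 signal over all 16 arrays, relative to the 75th percentile, for the 7574 contigs tested; orange points are the 59 contigs lower on every cyfluthrin array and grey points the others. Of the 59, 44 lie among the 2525 brightest contigs and 1 among the 2525 dimmest.

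The edge of the criterion was narrow. The gap between the groups had a median of 0.13 log2 units, was under 0.1 for 26 of the 59 contigs and over 0.5 for 10. The members nearest the edge were contig_3371, contig_4832 and contig_1839, whose lowest control and highest cyfluthrin values differed by 0.0002, 0.0023 and 0.0042. Their means were 4.08 ± 0.16 and 3.69 ± 0.27, 2.23 ± 0.15 and 1.63 ± 0.26, and 3.69 ± 0.15 and 3.47 ± 0.06 (control, then cyfluthrin; SD, n = 8 each). Just outside it were contig_3166, contig_586, contig_4102 and contig_6920, with the groups overlapping by 0.0017 to 0.0070 and changes of -0.32, -1.15, -0.39 and -0.59. A gap under 0.05 was found for 16 members and an overlap under 0.05 for 20 non-members.

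Some arrays decided more of the list than others. Control replicate 7 held the lowest control value for 25 of the 59 contigs, and the median of the 59 was lowest there among the controls. The matching share over all contigs tested is not given, so this count is not read as particular to the 59. Leaving out any 1 array can add contigs to the list but take none away. Without cyfluthrin replicate 4 the list held 107 contigs, without cyfluthrin replicate 6 it held 93, without control replicate 7 it held 82, and without each of the other 13 arrays between 59 and 72. The median change of the 59 lay between -0.88 and -0.81 over these 16 fits.

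Which contigs kept the groups apart depended on how the arrays were scaled, whereas the direction of the mean difference seldom did. With the arrays scaled to their medians 27 of the 59 remained separate, with quantile normalization 46, and 45 in the values the authors deposited. With spike-in probes as the scale 25 remained, or 41 when only the 5 spike-in probes that followed each other were used, a setting chosen after seeing the data; with normexp background correction 36 remained. The mean difference stayed below 0 for 59 of 59 contigs under each of these settings except normexp, where contig_3554 was above 0. The criterion favours that sign, and some changes became small. From -0.22, contig_1839 went to -0.05 with quantile normalization and -0.04 in the authors' values. From -0.62, contig_5065 went to -0.42 and -0.41. The median of the 59 was -0.87 and -0.86 under these settings. The values were taken under 8 settings, which also took in outlier spots kept and the median of a contig's spots. These added settings could change none of the 59, whose spots were single or paired with 0 readings set aside. The authors' values followed the quantile-normalized ones closely, so the 8 settings are fewer separate checks. The groups stayed apart under every setting for 13 contigs: contig_2561, contig_2087, contig_3407, contig_1777, contig_8524, contig_292, contig_8058, contig_8247, contig_2434, contig_2225, contig_327, contig_5309 and contig_8357. The last of these had the smallest mean change, -0.91, from 4.01 ± 0.16 to 3.10 ± 0.36 (SD, n = 8 each).

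The arrays lay on 2 slides with 4 control and 4 cyfluthrin arrays each; the control arrays took row 2 of slide 1 and row 1 of slide 2, and the cyfluthrin arrays the other rows. A contig that met the criterion over all arrays was separated on each slide by construction, and contigs that behaved differently on the slides were less able to meet it, so the values by slide describe the 59 and support nothing. The median change of the 59 contigs was -0.85 on slide 1 and -0.86 on slide 2, and 45 of the 59 changes differed by less than 0.25 between the slides. The difference between the groups was greater on slide 1 for 28 contigs and on slide 2 for 31. In limma, the treatment-by-slide interaction passed the threshold for 0 of all 7574 contigs (0%), and its unadjusted p was under 0.05 for 107 (1.41%), 0 of them among the 59; nothing is read from that count. The widest difference was that of contig_3407, with changes of -3.16 and -2.04, and the low spot of cyfluthrin replicate 4 lies on slide 1. On the other side was contig_1588, with -1.48 and -2.18. Row and this interaction are the same contrast in this layout and cannot be told apart.

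**Figure D4:**
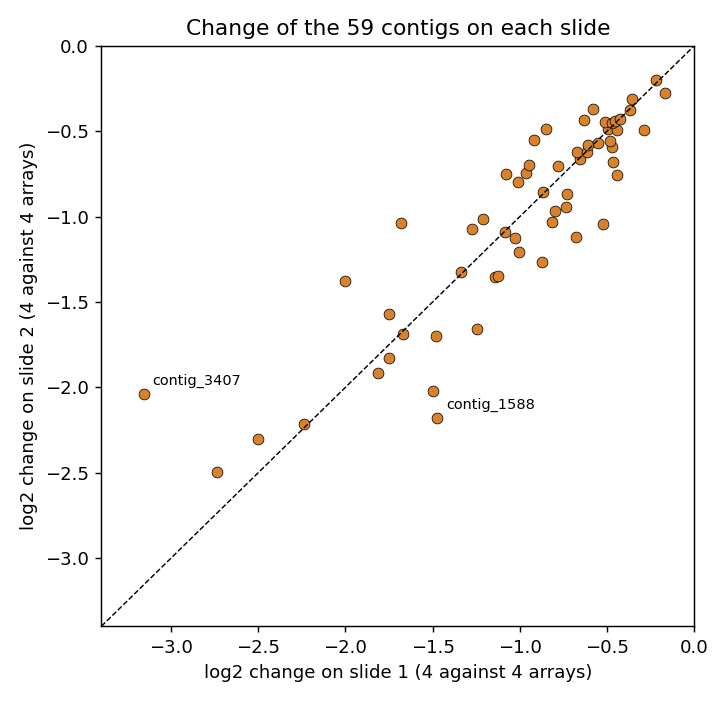
Log2 change, cyfluthrin minus control, on slide 2 against slide 1 (4 against 4 arrays each) for the 59 contigs; the dashed line marks equal changes. Of the 59 points 45 lie within 0.25 of the line, and contig_3407 and contig_1588 lie farthest from it on either side.

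Slide itself was tested as well: with treatment in the limma fit, slide passed the threshold for 0 of the 59 and 0 of all tested (0%), and had an unadjusted p under 0.05 for 2 of the 59 and 182 of all tested (2.4%). The criterion was also applied to a single slide, so that the other slide was left unused. On slide 1 alone 278 contigs (3.67%) were lower on all 4 cyfluthrin arrays, and on slide 2 alone 311 (4.11%). Of the slide 1 list, 95 contigs (34.2%) also met the criterion on slide 2, which is 30.5% of the slide 2 list, and the 59 contigs are among the 95 by construction. A change below 0 on slide 2 was found for 256 of the 278 (92.1%, against 40.3% of all tested), with a median of -0.44. In the other direction 301 of the 311 were below 0 on slide 1 (96.8%, against 59.7% of all tested), with a median of -0.36. The 256 and the 301 both include the 59 by construction, and the shares of all tested are not matched for brightness. These counts are therefore a description, and they support nothing about the 59.

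For the 42 contigs with paired spots, the mean of the spots had chosen the contig, so the spots taken singly are no separate evidence. Taken singly, both spots kept the groups apart for 33 contigs, 1 spot did for 6 and neither did for 3. On an array the spots of a contig differed by a median of 0.055 log2 units, against 0.087 over all tested contigs with paired spots.

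Within a group, the 59 contigs varied together loosely. Over the 1711 pairs of contigs the median correlation across the 8 control arrays was 0.271, with quartiles of -0.024 and 0.532, against a median of 0.035 and quartiles of -0.321 and 0.39 over all pairs of tested contigs. Across the 8 cyfluthrin arrays the median was 0.061 for the 59 and 0.06 for all. All pairs share the same arrays, RNA samples and scaling, so these correlations describe the arrays and are given without a test. The tested contigs outside the list whose profile over the 16 arrays was most like the mean of the 59 were contig_6882, contig_6920 and contig_4498, with r of 0.907, 0.905 and 0.897, a measure that includes the difference between the groups; their changes were -1.32, -0.59 and -0.96.

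Several of the greatest falls sat close together in the list from which the probes were designed. Each probe name holds a running number in 1 of 3 lists, with 3496, 2564 and 2447 contigs, and what the order of a list follows is not given in the sources used here. The pattern was noticed after the values were seen, and the numbers played no part in the criterion. In the largest list 12 of its 25 contigs that met the criterion (48%) had another such contig within 5 places, against 181 of the 3188 other tested contigs of that list (5.68%). In the other lists 0 of 22 and 0 of 12 did, against 9.96% and 5.43% of the others. Neighbours in the largest list also varied together slightly more than distant contigs did, whatever their change: the median correlation across control arrays was 0.15 for next neighbours and 0.055 for contigs 100 places apart.

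The longest stretch held contig_6339, contig_2087, contig_2088 and contig_2561 at probe numbers 4110, 4119, 4121 and 4125, with changes of -1.66, -2.40, -1.86 and -2.62, and contig_327, with a change of -1.11, followed at 4138. Of the 4 other tested contigs inside it, 3 had changes below 0, with a median of -0.16 over the 4; contig_2086 and contig_2089, on either side of contig_2087 and contig_2088 in contig number too, had changes of -0.10 and -0.31. Just before the stretch, at numbers 4102, 4103 and 4105, lay contig_4735, contig_4879 and contig_5659, which were higher on every cyfluthrin array, with changes of 3.44, 3.68 and 3.61. The 8 spots of the 4 contigs were scattered over rows 43 to 175 of 192 and columns 5 to 82 of 82 on the array, the closest 2.2 grid steps apart. The other runs were pairs: contig_3407 with contig_4229 at 528 and 529, contig_4319 with contig_65 at 496 and 502, contig_3482 with contig_4753 at 1112 and 1114, and contig_1428 with contig_5309 at 2318 and 2319.

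**Figure D5:**
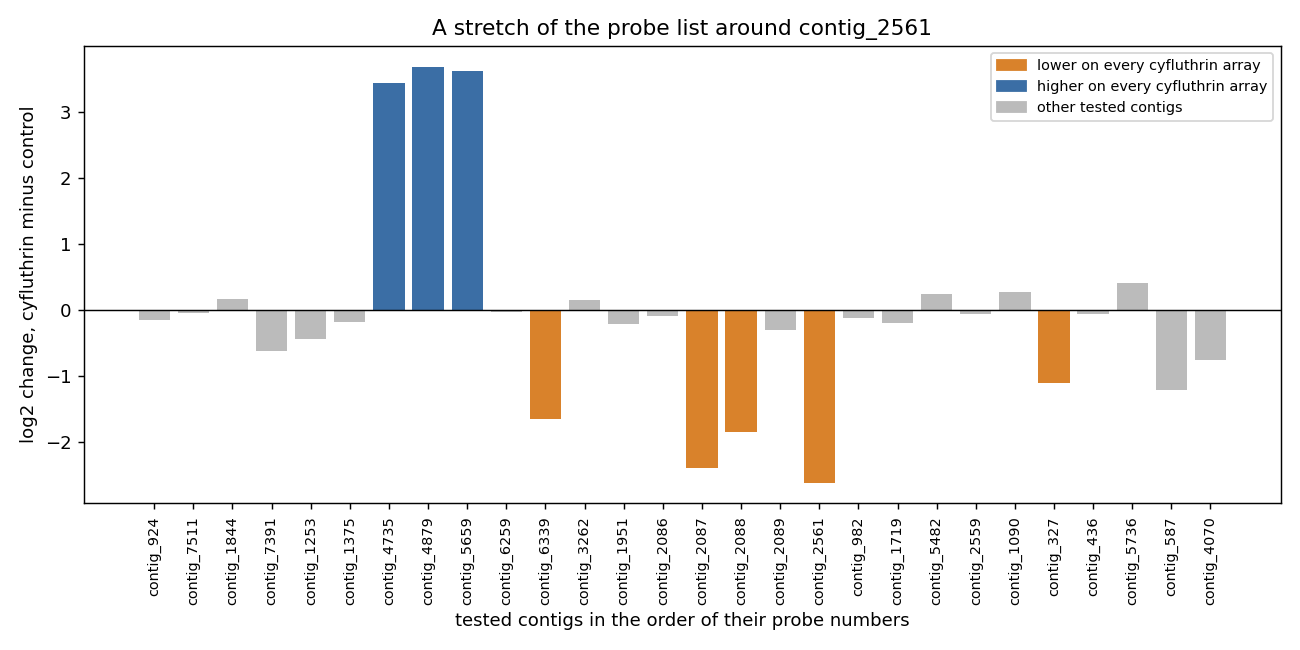
Log2 change, cyfluthrin minus control, of tested contigs in the order of their probe numbers in a stretch of the largest design list; orange bars are contigs lower and blue bars contigs higher on every cyfluthrin array, grey bars the others. The orange bars run from -1.11 to -2.62 and the 3 blue bars from 3.44 to 3.68.

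Within a group, some contigs of these runs followed each other closely over the 8 arrays. The pairs were picked after the values were seen and share arrays, RNA samples and scaling, so their correlations are a description with no test. Over all pairs of the 59 the median was 0.271 and the upper quartile 0.532 in control, and 0.061 and 0.355 with cyfluthrin. In control contig_2087 followed contig_2088 with r = 0.982 and rho = 1.0, and r was 0.95 without the 2 arrays farthest from the median. With cyfluthrin r was 0.72 and rho 0.833, and r was 0.564 without the 2 farthest. With contig_2561, contig_2087 had r = 0.959 and rho = 0.976 in control, and r was 0.834 without the 2 farthest. With cyfluthrin r was 0.892 but rho 0.595, and r was 0.486 without the 2 farthest. Leaving out the farthest arrays narrows the range, which alone can lower r, so nothing is concluded from such a fall. The pair of contig_3407 and contig_4229 had r = 0.964 and rho = 0.929 in control, and r was 0.827 without the 2 farthest. With cyfluthrin its r was 0.151 and rho 0.81, and r was 0.986 without the 2 arrays farthest in contig_3407, of which replicate 4 was one. The contig_6339 signal had r of 0.565 to 0.632 with the other contigs of its run in control and -0.33 to -0.235 with cyfluthrin. In control and with cyfluthrin, r was -0.181 and 0.415 for contig_3482 with contig_4753, and 0.689 and 0.707 for contig_4319 with contig_65. It was 0.893 and 0.505 for contig_1428 with contig_5309, and 0.928 and 0.503 for contig_2088 with contig_2561.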

How the data were processed

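Per the file headers, the authors' scanner files hold processed signals, intensities that Agilent Feature Extraction 10.7.1.1 subtracted for background and detrended within an array (9.1 per the submitters' processing notes). Values in the table the authors deposited are log2 values with column medians of -0.038 to 0.049; they correlated at 0.994 to 0.999 with quantile-normalized log2 processed signals centred on each probe's median but the steps behind them are not stated. No covariate or normalization across arrays beyond the 75th percentile was used. Spots marked non-uniform or population outliers were left out, the 15208 contig spots were averaged by contig, and contigs entered the tests if 8 or more arrays had 50% or more of the spots well above background; 4 tested contigs lacked a value on some array and could not meet the criterion. A 2-sided limma model (version 3.58.1, R 4.3.3; lmFit, then eBayes) was fitted on the whole table with Benjamini-Hochberg adjustment over 7574 contigs and a threshold of 0.05; it was tested on simulated data. The contigs given by number were the 8 greatest falls, 6 widest and 3 narrowest gaps, 4 highest and 4 lowest control means, any not well above background on some array, the 4 just outside and the 3 most alike. Contigs shown for their probe number, for staying apart under other settings or for missing the limma threshold were chosen after their values were seen. The members and lists were chosen with earlier results of these data known. Normexp used the median and background median signals with an offset of 50. The number of arrays limits the precision.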

Additional observations from a re-analysis of the deposited data

Results flagged for a closer look

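Among 48 groups of 8 arrays examined, 3 had an array whose gap to its nearest neighbour took up an unusually large share of the group's range, which happens by chance in about 1 group of 20. In contig_3407 cyfluthrin replicate 4 lay at -5.40, the other 7 between -1.09 and 0.23. For contig_4229, control replicate 7 lay at 2.18 and the other controls between 2.84 and 3.34. The median of the 59 contigs relative to their control means was -0.65 on cyfluthrin replicate 6, nearest to the controls, and -0.90 to -0.78 on the other cyfluthrin arrays.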

How the results depend on the processing

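Of the 59 contigs, 27 stayed separate with median scaling, 25 with scaling to 6 spike-in probes and 36 with normexp. Contigs lower on every cyfluthrin array then numbered 33 with median scaling and 34 with spike-in scaling, and, with fewer arrays to separate, 278 on slide 1 and 311 on slide 2. With single arrays left out the count was 59 to 107. limma's count of lower contigs, 277, became 186 with median scaling, 94 with spike-in scaling and 103 with normexp. It was 137 with the 5 spike-in probes that followed each other (added after seeing the data) and 108 at an adjusted p under 0.01. The median change of the 59 was -1.11 with those 5 probes and -0.74 with normexp, where the median of all contigs was -0.24 and 0.27. The change of contig_3554 was 0.14 with normexp. Apart from the stricter threshold and the fewer arrays, the causes were not tested. Of 735 values for 23 named contigs under alternatives, 712 moved by less than 1 SD, 22 by more and 1 changed sign. Part of the 712 could not move, so that count is no measure of stability. In this balanced layout, slide, row or replicate number as a block leaves the mean change as it is, as does another eBayes setting. For the named contigs among the 59, so do a changed filter, outlier spots kept and the median of the spots. With the replicate number as a block limma called 191 lower. Same-numbered deviations correlated from -0.273 to 0.462, with a mean of 0.088. Differently numbered arrays were not compared, so these values do not settle whether the numbers pair the samples. The main fit did not pair them. limma's count was 270 with slide and 262 with row as a block.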
